A study of Homo sapiens with 6 samples.

Results

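The genes described here encode the receptors and ligands of the EGFR family. They were taken by symbol from the expression table: the receptor genes EGFR, ERBB2 and ERBB3 and the ligand genes AREG, EREG, HBEGF, TGFA, EGF, BTC and NRG1, 10 of its 42495 gene rows. Cells of the human pancreatic carcinoma line Panc-1 were kept for 72 h in CAFR-CM or CAFS-CM, medium conditioned by cancer-associated fibroblasts (CAFs) of a platinum-resistant or a platinum-sensitive pancreatic cancer, and rRNA-depleted total RNA was sequenced from 3 samples of each group. Each group's medium was made with a single CAF line, and Panc-1 in medium without fibroblast factors is not among the 6 samples, so that CAFR-CM is compared with CAFS-CM only. The p-values therefore rest on the spread among these samples, and the CAF line and the group cannot be told apart.

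Receptors of this family are tyrosine kinases in the plasma membrane that pair after a ligand binds and pass the signal to the RAS-ERK, PI3K-AKT and STAT pathways. EGFR binds amphiregulin, epiregulin, HB-EGF, TGF-alpha, EGF and betacellulin, ERBB3 binds neuregulins, and ERBB2 has no known ligand of its own and acts as the partner of the others. The ligands are made as membrane-bound precursors and are cut free by ADAM proteases. In mice, EGFR signaling is known to take part in the formation of early pancreatic lesions.

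After CAFR-CM, the level of AREG was 1.94 times that after CAFS-CM, EREG was 1.17 times as high and ERBB2 was 0.858 times as high, whereas EGFR, ERBB3, HBEGF, TGFA and NRG1 did not pass the test. Levels are the deposited FPKM values (fragments scaled for transcript length and depth). The 23608 genes that exceeded 0.1 FPKM in 3 or more libraries were tested with limma on log2(FPKM + 1), and p-values were adjusted over all of them (Benjamini-Hochberg). At an adjusted p under 0.05, 2 of the 8 members tested were higher and 1 was lower, while 15.1% of all genes tested were higher and 11.1% lower, and 26.2% were called in either direction against 37.5% of these 8. The other 2 members, EGF and BTC, lay under the limit and were not tested. All 8 members tested averaged above 1 FPKM in both groups, and such genes were called more often in a fit of their own. In that fit of the 14828 genes with a mean of at least 1 FPKM, 3249 were higher and 2825 lower. AREG, EREG and ERBB2 were again the members called there. An excess of calls among the members over genes of like level was therefore not shown. The median log2 fold change was 0.06 for the 8 members tested and 0.06 for all genes tested. The plot of levels by library shows the 8 members.

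**Figure D1:**
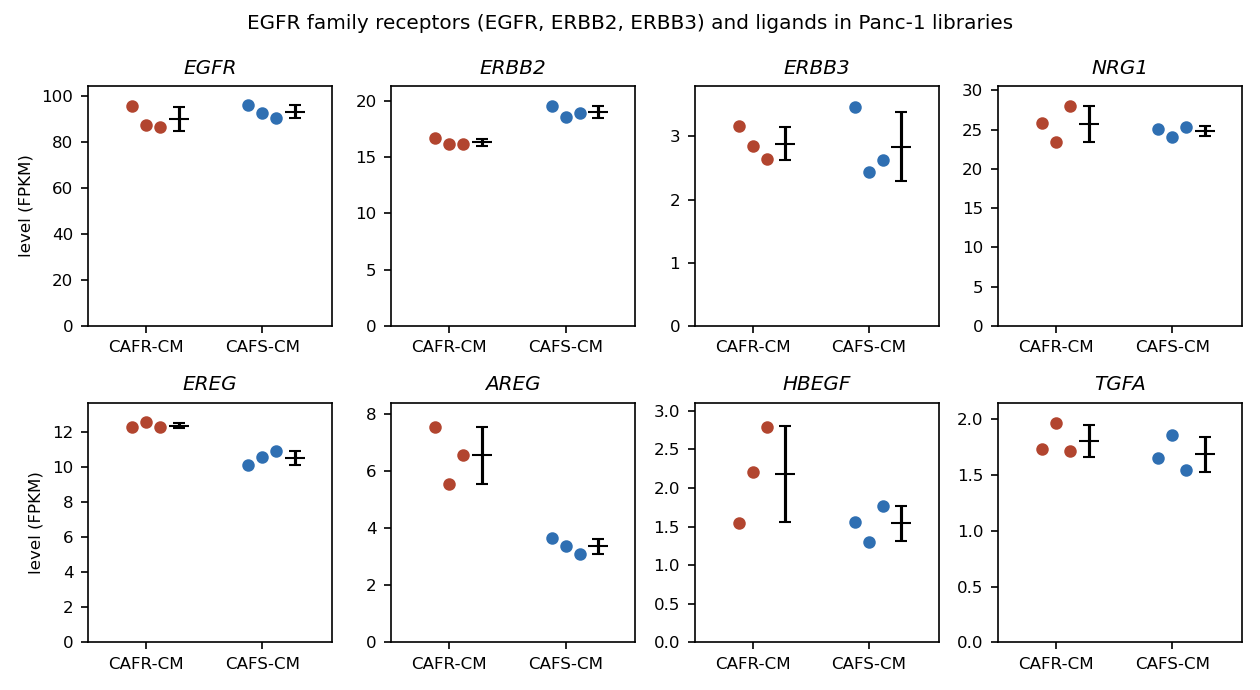
Level in FPKM (vertical axis, from 0) of each of the 8 members tested, with 1 point per library and the mean ± SD of 3 libraries beside it, CAFR-CM on the left and CAFS-CM on the right. The groups do not overlap for AREG, EREG and ERBB2, and overlap for EGFR, ERBB3, NRG1, HBEGF and TGFA.

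In bulk RNA such as this, fewer cells of a type and less RNA per cell cannot be told apart. Markers of the line and of other cell types were read beside the members. By the study's methods, the conditioned medium was centrifuged and sterile-filtered before it was stored for use. The 6 carcinoma markers, most of them keratins, summed to 4959 to 5172 FPKM after CAFR-CM and to 5922 to 6163 FPKM after CAFS-CM, with EPCAM and CDH1 higher (log2 fold changes 0.76 and 0.73) and KRT18 and KRT19 lower (-0.31 and -0.17). The 12 fibroblast markers summed to 54.2 to 60.2 FPKM after CAFR-CM and 42.0 to 48.3 FPKM after CAFS-CM, most of it COL1A1 and COL3A1. Of them COL1A1 was higher (0.49), while FAP and PDPN were at 0 in every library and COL1A2 reached at most 0.02 FPKM. The 5 leukocyte markers with a row summed to 36.2 to 42.0 FPKM after CAFR-CM and 33.6 to 36.6 FPKM after CAFS-CM, nearly all of it CD68, with PTPRC at no more than 0.01 FPKM, and 0 of 3 tested were called by limma (2 at an unadjusted p under 0.05). The 5 endothelial markers summed to 2.09 to 2.55 FPKM after CAFR-CM and 1.55 to 1.63 FPKM after CAFS-CM, with KDR higher (0.37) and PECAM1 at no more than 0.07 FPKM. All FPKM summed to 666560 to 701406 after CAFR-CM and to 660604 to 691568 after CAFS-CM. Genes above 0.1 FPKM numbered 23775 to 24166 after CAFR-CM and 22656 to 22936 after CAFS-CM, ranges that did not overlap. The part of these markers, totals and gene numbers in the values of the family genes was not tested.

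The ligand genes AREG and EREG lie next to each other on chromosome 4 of GRCh38 (GENCODE v44), EREG from 74365145 to 74388749 and AREG from 74445136 to 74455005, both on the plus strand, with starts 79.991 kb apart. BTC lies 349.387 kb beyond the AREG start on the minus strand. Since AREG and EREG were the members higher, the 250 bases before their RefSeq starts are shown (GRCh38.p14, plus strand, chr4:74444886-74445135 for AREG and chr4:74364895-74365144 for EREG), in lower case with matches to the cAMP response element TGACGTCA, its first bases TGACG and the TATA box TATAAA in capitals.
AREG: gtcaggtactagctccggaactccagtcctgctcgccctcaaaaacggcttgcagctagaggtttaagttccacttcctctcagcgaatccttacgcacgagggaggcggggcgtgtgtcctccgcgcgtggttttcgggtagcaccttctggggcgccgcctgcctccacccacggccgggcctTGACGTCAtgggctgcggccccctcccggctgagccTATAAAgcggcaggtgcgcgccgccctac
EREG: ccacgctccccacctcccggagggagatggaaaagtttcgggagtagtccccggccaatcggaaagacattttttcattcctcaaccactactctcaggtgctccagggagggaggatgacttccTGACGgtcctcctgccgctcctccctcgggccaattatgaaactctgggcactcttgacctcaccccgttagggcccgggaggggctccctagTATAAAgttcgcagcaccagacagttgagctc
The AREG window held TGACGTCA from base -65 and TATAAA from base -29, counted back from the start. The EREG window held TGACG from base -125 and TATAAA from base -32, but not the whole element. On both strands and over all 35116 RefSeq windows of this length, TGACGTCA was found in 1.65%, TGACG, which is part of it, in 21.2% and TATAAA in 10.7%. Of the other members, TGFA held TGACG and EGFR held TATAAA, each in 1 of 2 windows. The window of EPGN, the gene of epigen, which lies on the other side of EREG, held TATAAA from base -29 and TGACG from base -44. The kappa-B consensus, the ACGTG form of the hypoxia response core and the AP-1 site TGANTCA had no match in the AREG and EREG windows. They were found in 9.96%, 18.5% and 6.57% of all windows. The other form of the hypoxia response core, GCGTG, was not searched. Its letters stand in the AREG window and, on the opposite strand, in the EREG window, and their share over all windows was not counted. A match describes letters only, and windows were found for 8 of the 10 members.

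Amphiregulin, the product of AREG, is a ligand of EGFR with a lower affinity than EGF. AREG was at 7.55, 5.53 and 6.55 FPKM in the CAFR-CM libraries and at 3.64, 3.36 and 3.10 FPKM in the CAFS-CM libraries. The lowest CAFR-CM library lay 1.89 FPKM above the highest CAFS-CM library, a gap smaller than the range within the CAFR-CM group and larger than that within the CAFS-CM group. The means of AREG were 6.54 ± 1.01 FPKM after CAFR-CM and 3.37 ± 0.270 FPKM after CAFS-CM (SD, n = 3 each), a log2 fold change of 0.78 ± 0.11 (SE) with an adjusted p of 0.00315 (limma). It passed the threshold in all 15 refits with another pseudocount, filter, scaling or variance model, with a replicate block or without 1 library (log2 fold change 0.67 to 0.93).

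Epiregulin, the product of EREG, binds EGFR and ERBB4. EREG was at 12.27, 12.56 and 12.31 FPKM after CAFR-CM and at 10.14, 10.57 and 10.90 FPKM after CAFS-CM. The groups did not overlap, and the difference was small beside that of AREG. The log2 fold change of EREG was 0.21 ± 0.05 (SE) with an adjusted p of 0.0187 (limma), at means of 12.4 ± 0.157 FPKM after CAFR-CM and 10.5 ± 0.381 FPKM after CAFS-CM (SD, n = 3 each). Its call was lost with equal FPKM totals (adjusted p = 0.0744 from limma), without CAFR-CM replicate 2 (0.0519) and without CAFS-CM replicate 1 or 2 (0.0666 and 0.0616), while the direction stayed the same in all 15 refits.

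HB-EGF and TGF-alpha are further ligands of EGFR, and HB-EGF also binds ERBB4. HBEGF lies on the minus strand of chromosome 5 from 140332843 to 140346603 and TGFA on that of chromosome 2 from 70447284 to 70554193. HBEGF was at 1.55, 2.20 and 2.79 FPKM after CAFR-CM and at 1.56, 1.30 and 1.76 FPKM after CAFS-CM. CAFR-CM replicate 1 lay inside the CAFS-CM range, and of the ligands tested the CAFR-CM libraries varied most for this one, with an SD of 28.5% of the mean against 15.0% after CAFS-CM. HBEGF had a log2 fold change of 0.31 (95% interval -0.07 to 0.69, adjusted p = 0.204 from limma), and none of the 15 refits called it. Its log2 fold change was 0.46 without CAFR-CM replicate 1 (adjusted p = 0.0540 from limma), 0.17 without CAFR-CM replicate 3 (0.437) and 0.15 under cyclic loess scaling (0.557).
TGFA was at 1.73, 1.97 and 1.72 FPKM after CAFR-CM and at 1.65, 1.86 and 1.55 FPKM after CAFS-CM. These ranges overlapped, and the log2 fold change was 0.06 (95% interval -0.15 to 0.28, adjusted p = 0.656 from limma).
EGF, the gene of the founding ligand on the plus strand of chromosome 4 from 109912883 to 110013766, was listed at 0, 0.02 and 0.02 FPKM after CAFR-CM and at 0, 0 and 0.01 FPKM after CAFS-CM. BTC, the gene of betacellulin, was listed at 0, 0 and 0.05 FPKM after CAFR-CM and at 0.03, 0.05 and 0.06 FPKM after CAFS-CM. At values so close to the rounding step of the table, no fold is given for either gene.

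NRG1, the neuregulin gene whose products bind ERBB3 and ERBB4, had the highest level of the ligand genes. It was at 25.79, 23.38 and 28.02 FPKM after CAFR-CM and at 25.01, 24.09 and 25.33 FPKM after CAFS-CM. The CAFS-CM range lay inside the CAFR-CM range, and the log2 fold change was 0.05 (95% interval -0.11 to 0.21, adjusted p = 0.649 from limma). Over the 7 ligand genes NRG1 made up 52.8%, 51.2% and 54.5% of the summed FPKM after CAFR-CM and 59.5%, 58.4% and 59.3% after CAFS-CM.

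The 6 members that encode ligands of EGFR summed to 23.1, 22.3 and 23.4 FPKM after CAFR-CM and to 17.0, 17.1 and 17.4 FPKM after CAFS-CM. EPGN, which is not a member, was left out of these sums. Most of the difference between these sums lay in AREG, which took 32.7%, 24.8% and 27.9% of the sum after CAFR-CM and 21.4%, 19.6% and 17.8% after CAFS-CM. EREG was the largest part in every library, at 52.5 to 56.4% after CAFR-CM and 59.6 to 62.7% after CAFS-CM. HBEGF and TGFA together came to 3.28, 4.17 and 4.51 FPKM after CAFR-CM and to 3.21, 3.16 and 3.31 FPKM after CAFS-CM, so that these sums overlapped. The sums contain the genes already tested and were given no test of their own.

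**Figure D2:**
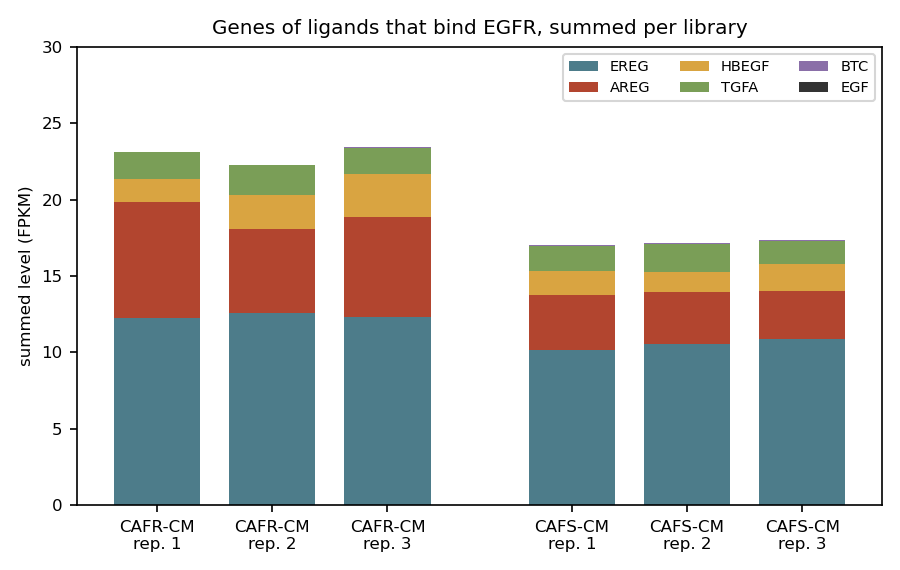
Summed level in FPKM (vertical axis, from 0) in each library of the 6 members that encode ligands of EGFR. Each gene is 1 segment of the bar, with CAFR-CM libraries on the left and CAFS-CM libraries on the right. The sums reach 22.3 to 23.4 FPKM after CAFR-CM and 17.0 to 17.4 FPKM after CAFS-CM, and EREG and AREG make up most of every bar.

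EGFR, which encodes the EGF receptor, lies on the plus strand of chromosome 7 from 55019017 to 55211628 (GRCh38). It was the member with the highest level, with 95.85, 87.25 and 86.54 FPKM after CAFR-CM and 96.07, 92.81 and 90.58 FPKM after CAFS-CM. CAFR-CM replicate 1 lay above 2 of the 3 CAFS-CM libraries. The means of EGFR were 89.9 ± 5.18 FPKM after CAFR-CM and 93.2 ± 2.76 FPKM after CAFS-CM (SD, n = 3 each). Its log2 fold change was -0.05 (95% interval -0.17 to 0.06, adjusted p = 0.483 from limma), and none of the 15 refits called it (adjusted p from 0.110 to 0.769), with the sign turned round under cyclic loess scaling (0.05).

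ERBB2, the gene of the partner receptor without a ligand, lies on the plus strand of chromosome 17 from 39687914 to 39730426. It was at 16.65, 16.14 and 16.12 FPKM after CAFR-CM and at 19.55, 18.51 and 18.92 FPKM after CAFS-CM. Every CAFR-CM library lay below every CAFS-CM library, with a gap of 1.86 FPKM. The mean of ERBB2 was 16.3 ± 0.300 FPKM after CAFR-CM and 19.0 ± 0.524 FPKM after CAFS-CM (SD, n = 3 each), and ERBB2 fell by 0.21 ± 0.04 (log2, SE) with an adjusted p of 0.0119 (limma). All 15 refits called it lower (adjusted p from 0.00867 to 0.0486). ERBB2 overlaps 2 genes on the opposite strand, MIEN1 by 571 and PGAP3 by 144 exonic bases, and the sources used here do not state whether reads were counted by strand. MIEN1 averaged 51.3 FPKM after CAFR-CM and 54.0 FPKM after CAFS-CM (log2 fold change -0.07, not called), and PGAP3 averaged 5.55 FPKM after CAFR-CM and 4.20 FPKM after CAFS-CM (log2 fold change 0.34, called higher). Their part in the ERBB2 value was not tested.

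ERBB3, whose product binds neuregulins and signals mainly through PI3K, lies on the plus strand of chromosome 12 from 56076799 to 56103505. It was at 3.16, 2.85 and 2.64 FPKM after CAFR-CM and at 3.46, 2.43 and 2.63 FPKM after CAFS-CM. The CAFR-CM values lay inside the CAFS-CM range, with a log2 fold change of 0.02 (95% interval -0.27 to 0.31, adjusted p = 0.909 from limma).
The 3 receptor genes summed to 115.7, 106.2 and 105.3 FPKM after CAFR-CM and to 119.1, 113.8 and 112.1 FPKM after CAFS-CM, ranges that overlapped. EGFR took 82.1 to 82.9% of this sum after CAFR-CM and 80.7 to 81.6% after CAFS-CM. EGFR was 5.76, 5.41 and 5.37 times ERBB2 after CAFR-CM and 4.91, 5.01 and 4.79 times ERBB2 after CAFS-CM, so that this ratio did not overlap between the groups.

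By mean FPKM the order of the members after CAFR-CM was EGFR, NRG1, ERBB2, EREG, AREG, ERBB3, HBEGF, TGFA, BTC and EGF. ERBB3 and HBEGF, HBEGF and TGFA, and BTC and EGF were neighbours whose libraries overlapped. After CAFS-CM the order was the same except that TGFA stood before HBEGF. There AREG overlapped ERBB3 and TGFA overlapped HBEGF, so AREG stood clear of ERBB3 after CAFR-CM and not after CAFS-CM. The groups did not overlap for 3 of the 8 members tested, 2 higher and 1 lower. Among all genes tested 43.2% did not overlap, 26.4% higher and 16.8% lower.

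The family holds 5 more genes, of which NRG2 alone was called. NRG2, a second neuregulin gene, was at 7.34, 8.43 and 7.04 FPKM after CAFR-CM and at 11.45, 10.48 and 10.25 FPKM after CAFS-CM, groups that did not overlap. NRG2 fell by 0.45 ± 0.08 (log2, SE) with an adjusted p of 0.00698 (limma), in the same direction and past the threshold in all 15 refits. ERBB4, the neuregulin receptor gene that is not among the members, was at 1.94, 1.80 and 2.93 FPKM after CAFR-CM and at 1.30, 1.35 and 1.98 FPKM after CAFS-CM. Its groups overlapped through CAFS-CM replicate 3 (log2 fold change 0.34, adjusted p = 0.191 from limma). EPGN averaged 0.147 FPKM after CAFR-CM and 0.123 FPKM after CAFS-CM and was not called. NRG4, another neuregulin gene, averaged 2.52 ± 0.759 FPKM after CAFR-CM and 2.84 ± 1.73 FPKM after CAFS-CM (SD, n = 3 each) and was not called, and NRG3 was listed at no more than 0.03 FPKM in any library. The CAFS-CM libraries of NRG4 were at 4.84, 1.84 and 1.85 FPKM, so most of their spread lay in replicate 1. NRG4 shares 1918 of its 5020 exonic bases with FBXO22 on the opposite strand. Its level is uncertain where reads were not counted by strand, and the part of FBXO22 in it was not tested. The plot of fold changes sets all 12 family genes tested side by side.

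**Figure D3:**
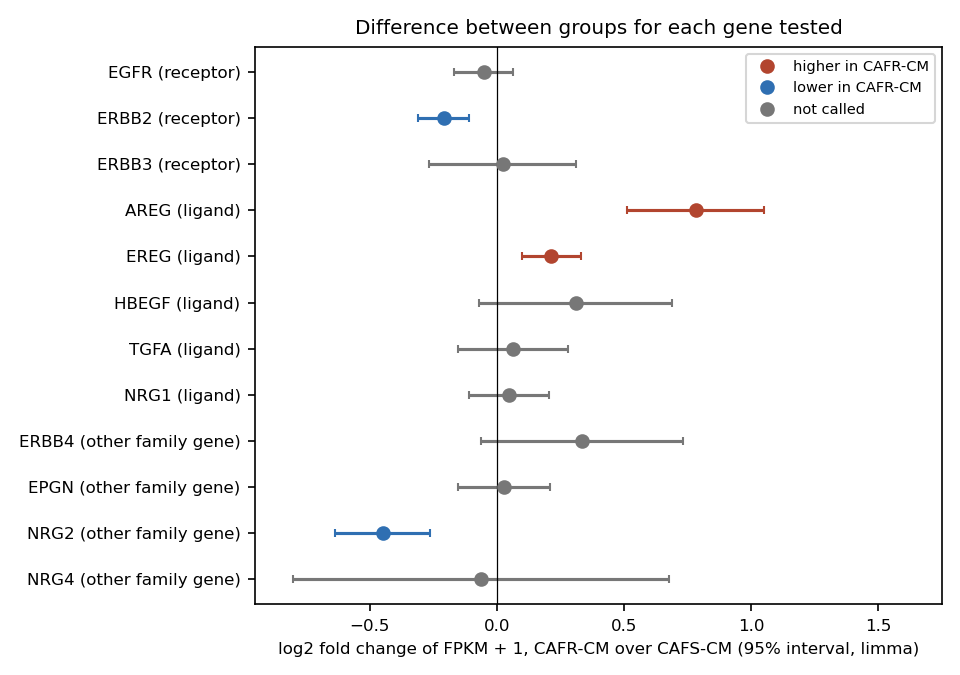
Log2 fold change of FPKM + 1, CAFR-CM over CAFS-CM (horizontal axis), of the 8 members and 4 other family genes tested, with the 95% interval from limma as bars, not adjusted for the number of genes. AREG at 0.78 and EREG at 0.21 lie to the right of 0, ERBB2 at -0.21 and NRG2 at -0.45 to the left, and the other intervals include 0.

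AREG and EREG belong to a block of genes on chromosome 4 that also holds CXC chemokine genes, and this block was looked at after the values of AREG and EREG were seen. From CXCL8 to BTC it spans 1054.005 kb with 14 protein-coding genes, of which 9 were tested and 7 were called higher after CAFR-CM and 0 lower by limma (0 lower also at an unadjusted p under 0.05), while 15.1% of all genes tested were higher and 11.1% lower. CXCL3, CXCL5 and CXCL8 passed the limit of 0.1 FPKM only through the CAFR-CM libraries, where they are high, so that this count is a description and supports nothing. CXCL8, CXCL1, CXCL2 and CXCL3, neutrophil-attracting chemokine genes of which the last 3 are near-identical and may share reads, had log2 fold changes of 3.89, 3.92, 2.79 and 2.05, and CXCL5 had 0.41. CXCL8 was at 14.73, 15.28 and 14.53 FPKM after CAFR-CM and at 0.06, 0.02 and 0.12 FPKM after CAFS-CM, so its fold on this scale is understated. The same holds for CXCL3, which averaged 3.54 FPKM after CAFR-CM and 0.10 FPKM after CAFS-CM. It also holds for CXCL5, which averaged 0.363 FPKM after CAFR-CM and 0.0267 FPKM after CAFS-CM. EPGN and MTHFD2L, the gene of a mitochondrial folate enzyme, lie between the chemokine genes and EREG and were not called, with log2 fold changes of 0.03 and -0.04. The higher genes are therefore not contiguous along the block.

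**Figure D4:**
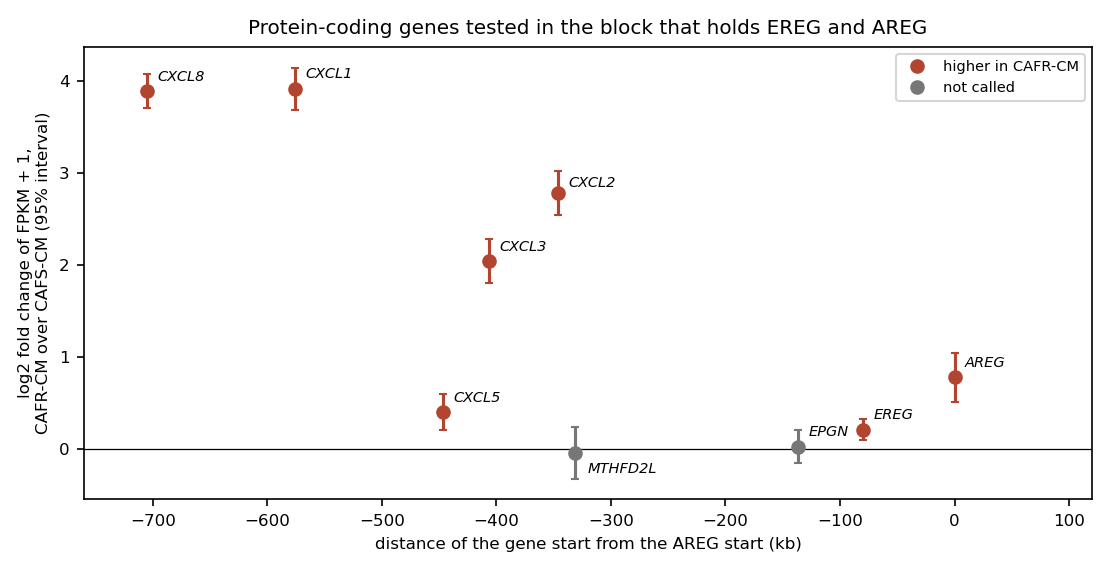
Log2 fold change of FPKM + 1, CAFR-CM over CAFS-CM, with its 95% interval from limma (vertical axis), against the distance of each gene's start from the AREG start in kb (horizontal axis), for the 9 protein-coding genes tested between CXCL8 and BTC. The chemokine genes lie at 0.41 to 3.92, MTHFD2L and EPGN at -0.04 and 0.03, EREG at 0.21 and AREG at 0.78. The folds of CXCL8, CXCL3 and CXCL5 are understated on this scale.

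The other genes of the pathway were taken from 5 lists ordered by role. Of 97 genes tested in them, 16 were higher after CAFR-CM and 24 were lower (limma), 41.2% against 26.2% of all genes tested. Of all genes tested 15.1% were higher and 11.1% lower. Nearly all of the 97 genes averaged above 1 FPKM, and such genes were called more often in a fit of their own. In that fit of the 14828 genes with a mean of at least 1 FPKM, 3249 were higher and 2825 lower. Its adjustment covers fewer genes, and its calls in the lists are not set beside these counts. An excess of calls in the lists over genes of like level was therefore not tested. In the 5 lists together the counts of genes higher were 10 and 9 without CAFS-CM replicate 1 and 2. The median log2 fold change was 0.03 for shedding, 0.18 for inhibitors, -0.02 for adaptors and kinases, -0.07 for endocytosis and -0.07 for ERK output, against 0.06 for all genes tested. Of 11 genes of ligand shedding and trafficking, 27.3% were called by limma, 3 higher and 0 lower (1 lower at an unadjusted p under 0.05). RHBDF2, which encodes iRhom2, the partner that brings the protease ADAM17 to the cell surface, was at 25.22, 25.90 and 25.90 FPKM after CAFR-CM and at 18.75, 18.59 and 17.23 FPKM after CAFS-CM (log2 fold change 0.48, adjusted p = 6.15e-04 from limma). ADAM17, the main protease that frees amphiregulin, epiregulin, HB-EGF and TGF-alpha, averaged 10.3 ± 0.240 FPKM after CAFR-CM and 8.65 ± 0.118 FPKM after CAFS-CM (log2 fold change 0.23, adjusted p = 0.0147 from limma). This ADAM17 call was lost without CAFS-CM replicate 1 or 2 and with equal FPKM totals (adjusted p = 0.0546, 0.0554 and 0.0564 from limma). ADAM19, a protease of neuregulin, rose by 0.27 (log2), and ADAM10, the protease of EGF and betacellulin, had a log2 fold change of 0.03 (adjusted p = 0.868 from limma).

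Of 16 receptor inhibitors and ubiquitin ligases, 25.0% were called by limma, 4 higher and 0 lower (2 lower at an unadjusted p under 0.05, and 1 lower with median-of-ratios scaling). Among all genes tested 15.1% were higher and 11.1% lower. ERRFI1, which encodes MIG6, a feedback inhibitor that binds the EGFR kinase, was at 141.5, 150.9 and 154.8 FPKM after CAFR-CM and at 121.2, 122.1 and 119.5 FPKM after CAFS-CM. Its groups did not overlap, and its log2 fold change was 0.30 (adjusted p = 0.00256 from limma). CBLC and CBLB, ubiquitin ligase genes of the family that marks EGFR for degradation, rose by 0.69 and 0.48 (log2), while CBL itself had a log2 fold change of 0.0028. CBLC averaged 0.923 FPKM after CAFR-CM and 0.193 FPKM after CAFS-CM, a low level at which the fold on this scale is understated, and the CBLB call was lost without CAFS-CM replicate 1 or 2 and under cyclic loess scaling (adjusted p = 0.0550, 0.0615 and 0.0731 from limma). LRIG3, at 0.28, was called with all 6 libraries (adjusted p = 0.0270 from limma) and in none of the 6 refits without 1 library (0.0528 to 0.0935), nor under cyclic loess scaling (0.134, log2 fold change 0.18). Without CAFS-CM replicate 1 or 2 the list held 2 genes higher.

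Of 33 adaptors and kinases close to the receptors, 48.5% were called, 6 higher and 10 lower, beside 15.1% and 11.1% of all genes tested. The number higher was 3 without CAFR-CM replicate 2 or 3 or without any of the CAFS-CM libraries. SOS1, the exchange factor that loads RAS with GTP, was at 55.18, 55.08 and 54.90 FPKM after CAFR-CM and at 36.98, 37.09 and 33.52 FPKM after CAFS-CM (log2 fold change 0.61, adjusted p = 2.55e-04 from limma). MAP2K2, the gene of the kinase MEK2, rose by 0.42 (log2). HRAS, a RAS gene, fell by 0.39, and STAT3, a transcription factor gene downstream of cytokine and growth factor receptors, fell by 0.34. Members of 1 kinase cascade therefore went in both directions. With cyclic loess scaling 6 were lower.

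Of 19 genes of receptor endocytosis and sorting, 36.8% were called by limma, 7 lower and 0 higher (1 higher at an unadjusted p under 0.05, with cyclic loess scaling, at a mean of at least 1 FPKM and without CAFR-CM replicate 2). Among all genes tested 11.1% were lower and 15.1% higher. CAV1, the gene of the caveolar coat protein caveolin-1, was at 53.08, 59.82 and 57.47 FPKM after CAFR-CM and at 82.79, 83.07 and 84.11 FPKM after CAFS-CM, and fell by 0.55 (adjusted p = 4.24e-04 from limma). EHD1, a recycling factor gene, fell by 0.34. AP2M1, a subunit of the clathrin adaptor AP-2, also fell by 0.34, and HGS, which sorts ubiquitin-marked receptors at endosomes, fell by 0.27.

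Of 18 genes that follow ERK activity, 55.6% were called, 3 higher and 7 lower, beside 15.1% and 11.1% of all genes tested. FOSL1, the gene of the AP-1 subunit FRA-1, was at 51.42, 47.14 and 47.82 FPKM after CAFR-CM and at 86.26, 81.93 and 77.70 FPKM after CAFS-CM, and fell by 0.74 (adjusted p = 1.83e-04 from limma). SPRY1 and SPRY4, genes of Sprouty feedback inhibitors, fell by 0.38 and 0.24. DUSP5, the gene of a nuclear ERK phosphatase, went the other way, with a log2 fold change of 0.52 (adjusted p = 0.00139 from limma). The plot of the 5 lists shows every gene tested.

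**Figure D5:**
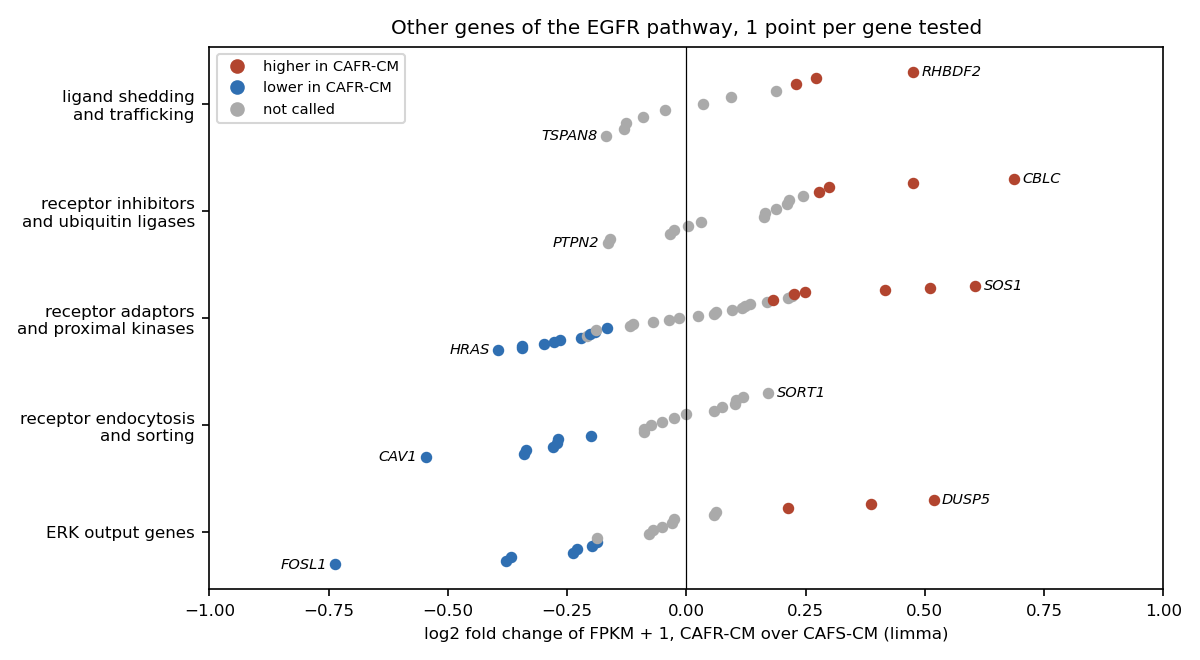
Log2 fold change of FPKM + 1, CAFR-CM over CAFS-CM (horizontal axis), of the 97 genes tested in the 5 pathway lists, 1 point per gene, with genes called higher, called lower and not called in different colours and the gene at each end of a list named. The ends run from -0.74 for FOSL1 to 0.69 for CBLC, and endocytosis and sorting holds 0 genes called higher (1 under cyclic loess scaling, at a mean of at least 1 FPKM or without CAFR-CM replicate 2).

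The genes whose profile over the 6 libraries was most like that of EGFR were HOXB8, ST6GALNAC4 and FAM72C, with Pearson r of 0.998, 0.984 and 0.983 on log2(FPKM + 1) among 13443 genes compared. For NRG1 they were SNHG31, CNOT4 and LOC105374813, with r of 0.971, 0.966 and 0.960. These r describe 6 points that share 2 groups of 3 libraries and are the highest of many, and FAM72C belongs to a set of near-identical genes that may share reads.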

How the data were processed

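RNA of Panc-1 cells treated with CAFR-CM or CAFS-CM was measured in 6 samples, 3 per group by their titles. The authors deposited a single table of FPKM with 2 decimals and a column for each sample. Read filtering had used SOAPnuke, mapping HISAT2 2.0.4 on GRCh38.p13, and quantification RSEM 1.2.12, per the study's methods. The submitters' processing notes also name Bowtie2 2.2.5 and DESeq2 1.4.5. Annotation and strand setting: not given in the sources used here.
Of 97767 rows, 55272 of circular RNAs held no value. Log2(FPKM + 1) of genes above 0.1 FPKM in at least 3 samples was fitted in R 4.3.3 by limma 3.58.1, with the trend option, and p-values were Benjamini-Hochberg adjusted over all 23608 genes. The fit was tested on simulated data. FPKM hold no read numbers, and depth is unknown. In all, 338 genes were found in just 1 CAFR-CM and 1 CAFS-CM library, at 0.1 FPKM or more in each. Among them, 75 had a ratio of CAFR-CM to CAFS-CM within 0.1 (log2) of 2, 41 of 1 and 8 of 0.5. The median ratio was 1.73, so equal depth was not shown and the relative depth was not settled. FPKM are scaled by library total, so abundant RNAs can shift all others, and folds of low genes are understated on this scale.
The members and lists were chosen with earlier results of these data known. Named were all members, the other family genes, up to 4 genes with the smallest adjusted p per pathway list and the 3 genes most like EGFR and the most abundant ligand. CBL, ADAM10, the genes that overlap members and the chromosome 4 block were chosen after their values were seen. Alternatives were another pseudocount, filters, scalings, variance models, thresholds, a replicate block and leaving out each library.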

Additional observations from a re-analysis of the deposited data

How the results depend on the processing

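Members higher numbered 2 and lower 1; with equal FPKM totals 1 was higher, at an adjusted p under 0.01 the counts were 1 and 0, and with a fold limit of 1 (log2) they were 0 and 0. Without 1 library, 1 to 2 were higher and 1 lower. Genes of all types called numbered 3560 higher and 2626 lower, 1751 and 1431 at an adjusted p under 0.01, 264 and 14 with the fold limit, and 2264 to 3316 and 1778 to 2351 without 1 library. The 5 pathway lists held 16 higher and 24 lower, 9 and 14 at an adjusted p under 0.01, 0 and 0 with the fold limit, and 9 to 16 and 18 to 22 without 1 library. Cyclic loess scaling, under which the median log2 fold change of all genes was -0.0024 against 0.06, turned the sign of 4 genes that were not called, EGFR (0.049), ERBB3 (-0.14), TGFA (-0.10) and EPGN (-0.047). The cause was not tested. Without 1 library, the sign of 4 uncalled genes also turned, with ranges of -0.053 to 0.14 for ERBB3, -0.014 to 0.11 for NRG1, -0.031 to 0.082 for EPGN and -0.24 to 0.28 for NRG4. Replicate numbers gave no sign of pairing, since deviations of same-numbered libraries correlated at 0.02, -0.03 and 0.06. With a replicate block, 2 members were higher and 1 lower, 2891 and 2340 genes of all types, and 14 and 22 in the pathway lists. Among the family and pathway-list genes named as called, the block ended the call of LRIG3 (adjusted p = 0.0532 from limma) and no other. Values under the block were not taken for markers, chemokine genes and PGAP3. FPKM hold no counts, so depth limits low genes such as EGF and BTC by an unknown amount.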
